A study of Homo sapiens with 18 samples.

Results

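The genes described here are 9 of the 60656 in the table of read counts per gene, picked by name as parts of the MHC class I antigen presentation pathway: HLA-B, HLA-C, HLA-E, B2M, TAP1, TAP2, TAPBP, PSMB9 and NLRC5. The RNA of 2 human lymphoma lines, both of the diffuse large B cell kind that arises from mature B cells, was sequenced in 18 libraries. Ly1 is labelled GCB, the germinal centre B cell type, and was grown in IMDM, whereas U2932 is labelled ABC, the activated B cell type, and was grown in RPMI 1640. Both media held 10% FBS, penicillin with streptomycin, and plasmocin. Each line had 3 libraries of cells given DMSO as the vehicle, 3 of cells given 1 µM SGC-GAK-1 for 12 h and 3 of cells given it for 24 h. SGC-GAK-1 inhibits GAK, a kinase that associates with cyclin G and acts on clathrin-coated vesicles. No time is given for DMSO, so the same 3 DMSO libraries served both treated times of a line. Line and medium cannot be told apart, and each type of lymphoma is represented by 1 line.

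MHC class I molecules carry peptides from proteins inside the cell to its surface, where CD8 T cells and natural killer cells inspect them. A polymorphic heavy chain (HLA-B or HLA-C among the classical ones, HLA-E among the less polymorphic ones) pairs with beta-2 microglobulin, the product of B2M. Peptides are cut by the proteasome, of which PSMB9 is an interferon-inducible catalytic subunit, pumped into the endoplasmic reticulum by the transporter made of TAP1 and TAP2, and loaded with the help of tapasin, encoded by TAPBP. NLRC5 is a coactivator that acts with RFX and NF-Y factors at class I promoters, and loss of class I at the surface is a known event in diffuse large B cell lymphoma.

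Library totals were 22549853 to 29386802 counts, so a count of 0 allows up to 3 counts, or 0.102 to 0.133 CPM (counts scaled to equal library totals), for counting error only. All 4 B cell markers listed (MS4A1, CD79A, CD79B, PAX5) were expressed in both lines, with summed levels of 1906 to 2343 CPM in Ly1 and 1966 to 2431 CPM in U2932. The 5 T and NK markers summed to at most 2.16 CPM and the 4 myeloid markers to at most 1.20 CPM in any library, and CD2 was at 0 in every library of both lines. The labels held for some subtype markers and not for others. MME and BCL6 were higher in Ly1 and IRF4 in U2932. PRDM1 and CCND2 had means of 0.253 and 0.0539 CPM in Ly1 DMSO against 33.8 and 36.2 CPM in U2932. The germinal centre markers SERPINA9 and LMO2 went against the labels. They had means of 0.315 and 0.0135 CPM in Ly1 DMSO against 107 and 9.57 CPM in U2932. PRDM1, CCND2 and LMO2 passed the filter on low counts only through U2932, so their direction was fixed by the filter. The ABC marker FOXP1 was lower in U2932 (85.1 CPM) than in Ly1 (111 CPM), and PIM1 and the germinal centre marker MYBL1 were not called. In every group the replicate 3 library stood furthest from the others: chi-square per degree of freedom over genes was 9.09 to 95.3 for pairs with replicate 3 and 3.35 to 8.87 for replicates 1 and 2. Calls that change without the replicate 3 libraries are given both ways. The labels do not tell whether the 3 libraries of a group came from different cultures, and p-values rest on a spread that may be technical.

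U2932 carried far more class I RNA than Ly1 in DMSO. HLA-B was 50.9-fold higher in U2932, HLA-E 9.79-fold, NLRC5 7.83-fold and B2M 4.54-fold, and TAP1, TAPBP and HLA-C were higher by 1.86-fold to 2.15-fold. TAP2 was lower in U2932, and PSMB9 was at 51.4 CPM in U2932 and 50.2 CPM in Ly1. By edgeR's quasi-likelihood test at an adjusted p of 0.05, 7 of the 9 genes were higher, 1 was lower and 1 was not called. Over all 16191 genes tested, 63% were called, 33.1% as higher and 29.9% as lower in U2932. The libraries of the lines did not overlap for 8 of the 9 genes, nor for 65.4% of all genes tested. The median log2 difference was 1.10 over the 9 genes and 0.02 over all tested. These are bulk libraries, in which fewer cells of a type and less RNA per cell cannot be told apart.

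HLA-B, a classical heavy chain at chr6:31269491-31357188 in hg38 (the interval of the deposited table), showed the widest gap of the 9. Its levels in replicates 1, 2 and 3 were 12.7, 14.2 and 14.2 CPM in Ly1 DMSO and 711, 725 and 656 CPM in U2932 DMSO, with means of 13.7 ± 0.875 and 697 ± 36.6 CPM (SD, n = 3). The lines did not overlap, and every U2932 library was far above every Ly1 library. The log2 difference was 5.67 ± 0.10 (SE, adjusted p = 8.02e-18 by edgeR). Of all genes tested, 6.12% were called higher in U2932 by at least 5 on the log2 scale. HLA-C, the neighbouring classical chain at chr6:31268749-31272130, was at 124, 123 and 125 CPM in Ly1 and 241, 226 and 224 CPM in U2932. The libraries did not overlap either, but the log2 difference was only 0.89 ± 0.07 (adjusted p = 3.43e-09). The table's HLA-B interval overlaps HLA-C by 2640 bases on the same strand, and 2.00% of the 50-base windows of the HLA-B transcript also occur in HLA-C, so reads near that identity are uncertain between them. Classical class I genes are highly polymorphic, and the effect on these counts of differences between the lines' alleles and the reference was not tested.

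The start regions of HLA-B and HLA-C are shown because these neighbours, with such unequal line differences, share most of their promoter sequence: 90.9% of 296 aligned bases were identical, with 8 gap positions. The sequences are from RefSeq (GRCh38.p14) and run from 250 bases before to 50 bases after the transcript start, HLA-B at chr6:31357130-31357429 and HLA-C at chr6:31272043-31272342, both on the minus strand. They are reference sequences, not those of the lines. Capitals mark 4 letter patterns searched on both strands, picked after the sequences were seen: CCAAT, the box bound by NF-Y; an interferon response core (GAAA, 2 free bases, GAAA); a kappaB-type pattern (GGG, 2 free bases, TT, 1 free base, CC), of the kind bound by NF-kappaB; and TGACGC, of the kind bound by CREB and ATF factors.
HLA-B: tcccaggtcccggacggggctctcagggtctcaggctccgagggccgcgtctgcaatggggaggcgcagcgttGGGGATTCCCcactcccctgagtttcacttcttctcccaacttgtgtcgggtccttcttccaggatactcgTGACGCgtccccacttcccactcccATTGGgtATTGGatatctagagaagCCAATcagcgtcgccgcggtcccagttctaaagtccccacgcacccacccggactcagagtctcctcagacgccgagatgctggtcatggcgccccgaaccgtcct
HLA-C: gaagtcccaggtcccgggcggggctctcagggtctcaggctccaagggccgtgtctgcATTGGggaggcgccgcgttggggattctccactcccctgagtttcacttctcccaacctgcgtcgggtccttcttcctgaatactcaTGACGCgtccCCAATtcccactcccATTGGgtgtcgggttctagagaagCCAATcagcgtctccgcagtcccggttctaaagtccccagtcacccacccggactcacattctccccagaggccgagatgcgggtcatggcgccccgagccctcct
Both hold TGACGC (from -106 to -101 in HLA-B and from -105 to -100 in HLA-C) and a CCAAT box from -56 to -52, counted from the transcript start. The HLA-B promoter has 3 CCAAT matches and the HLA-C promoter 4. The kappaB-type pattern matched in HLA-B, from -177 to -168, and not in these 300 bases of HLA-C. Of 35116 RefSeq promoters of this length, 34.6% hold CCAAT, 9.14% TGACGC, 5.68% the kappaB-type pattern and 3.57% the interferon response core. A match is a description of letters, not a binding site. Only exact letters were searched, so a promoter without a match may still hold a variant of the pattern.

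HLA-E, at chr6:30489509-30494194, is the heavy chain that presents leader peptides of other class I chains to NKG2A receptors of natural killer cells. It was at 7.70, 8.96 and 11.6 CPM in Ly1 DMSO and 87.8, 86.4 and 102 CPM in U2932 DMSO. The lines did not overlap, and replicate 3 was the highest library in both. The log2 difference was 3.29 ± 0.14 (adjusted p = 4.28e-13), and 10.3% of all genes tested were called higher by at least 3.

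B2M, at chr15:44711487-44718877, encodes the light chain without which heavy chains do not reach the surface, and lies outside the MHC region. Its levels were 294, 277 and 188 CPM in Ly1 DMSO and 1069, 1168 and 1211 CPM in U2932 DMSO. Replicate 3 of Ly1 DMSO was the low library, 0.60 below the mean of replicates 1 and 2 on the log2 scale, and still all U2932 libraries were above all Ly1 libraries. The log2 difference was 2.18 ± 0.12 (adjusted p = 2.99e-11). The B2M promoter is from RefSeq, at chr15:44711267-44711566 on the plus strand. It is shown with the same capitals, since the B2M product pairs with the HLA-B chain. Whether these promoters bear on the line difference was not tested.
B2M: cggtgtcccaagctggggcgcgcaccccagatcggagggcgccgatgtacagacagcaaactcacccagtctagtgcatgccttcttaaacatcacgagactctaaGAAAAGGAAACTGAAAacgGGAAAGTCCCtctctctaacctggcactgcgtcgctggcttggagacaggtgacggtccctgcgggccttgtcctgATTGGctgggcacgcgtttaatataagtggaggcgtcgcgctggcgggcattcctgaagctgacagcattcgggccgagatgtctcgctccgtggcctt
It holds 1 CCAAT box (from -49 to -45), 2 overlapping interferon response cores (from -144 to -135 and from -138 to -129) and 1 kappaB-type match (from -125 to -116). Of the 9 genes, 7 matched a promoter in the RefSeq table, and HLA-E and NLRC5 are named only. Among the 7, the exact letters of CCAAT were found in 5 and those of the interferon response core in 4 (B2M, TAP1, TAP2 and TAPBP). The kappaB-type pattern was found in 4 (HLA-B, B2M, TAP1 and TAPBP) and TGACGC in 3 (HLA-B, HLA-C and TAP2). TAP1 had 2 promoters, and promoter 2 held none of these patterns, so TAP1 counts through promoter 1 only. The shares over RefSeq promoters count each promoter on its own. Variants of the patterns were not searched, so a gene without a match may still hold such an element.

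The genes of peptide supply and loading did not all differ between the lines in one direction. TAP1, a subunit of the peptide transporter at chr6:32845209-32853978, was at 48.9, 48.6 and 48.3 CPM in Ly1 DMSO and 101, 102 and 110 CPM in U2932 DMSO. That is a log2 difference of 1.10 ± 0.08 (adjusted p = 5.24e-10), with the lines apart in every library. TAP2, the other subunit at chr6:32821833-32838770, went the other way, with 69.4, 65.7 and 74.4 CPM in Ly1 and 47.8, 50.4 and 47.9 CPM in U2932. It was lower in U2932 by a log2 difference of -0.52 ± 0.09 (adjusted p = 4.86e-05), again without overlap. The TAP2 level is uncertain, since 80.2% of the 50-base windows of its transcript occur in another annotated gene. AL669918.1, which overlaps TAP2 over 16938 bases, had 0 counts over the 18 libraries, beside 27257 for TAP2. The effect of the shared windows on the line difference was not tested. TAPBP, encoding the tapasin that bridges transporter and heavy chain, at chr6:33299694-33314387, was at 166, 181 and 208 CPM in Ly1 and 326, 342 and 399 CPM in U2932. It was higher in U2932 by 0.94 ± 0.10 on the log2 scale (adjusted p = 2.91e-07). PSMB9, at chr6:32844136-32859851, was at 53.7, 51.0 and 46.0 CPM in Ly1 and 56.4, 49.8 and 48.0 CPM in U2932. These ranges overlapped, and PSMB9 was the only one of the 9 not called (log2 difference 0.03 ± 0.11, adjusted p = 0.815). The table's PSMB9 interval contains TAP1 on the opposite strand (8770 bases). It also overlaps PSMB8 by 544 bases and PSMB8-AS1 by 2365 bases. Over the 18 libraries PSMB9 had 23081 counts, TAP1 35545, PSMB8 45753 and PSMB8-AS1 3677. The use of strand in counting is not given in the sources used here, so reads of these genes may not be told apart.

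NLRC5, at chr16:56989485-57083531, was the scarcest of the 9 in reads per length. Its levels were 3.16, 3.73 and 2.94 CPM in Ly1 DMSO, from 91, 92 and 68 counts, and 31.4, 27.4 and 18.1 CPM in U2932 DMSO, from 840, 681 and 462 counts. The lines did not overlap, and replicate 3 was the lowest library in both. The log2 difference was 2.97 ± 0.21 (adjusted p = 6.69e-10). The 8 calls among the 9 genes held under every alternative tried.

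**Figure D1:**
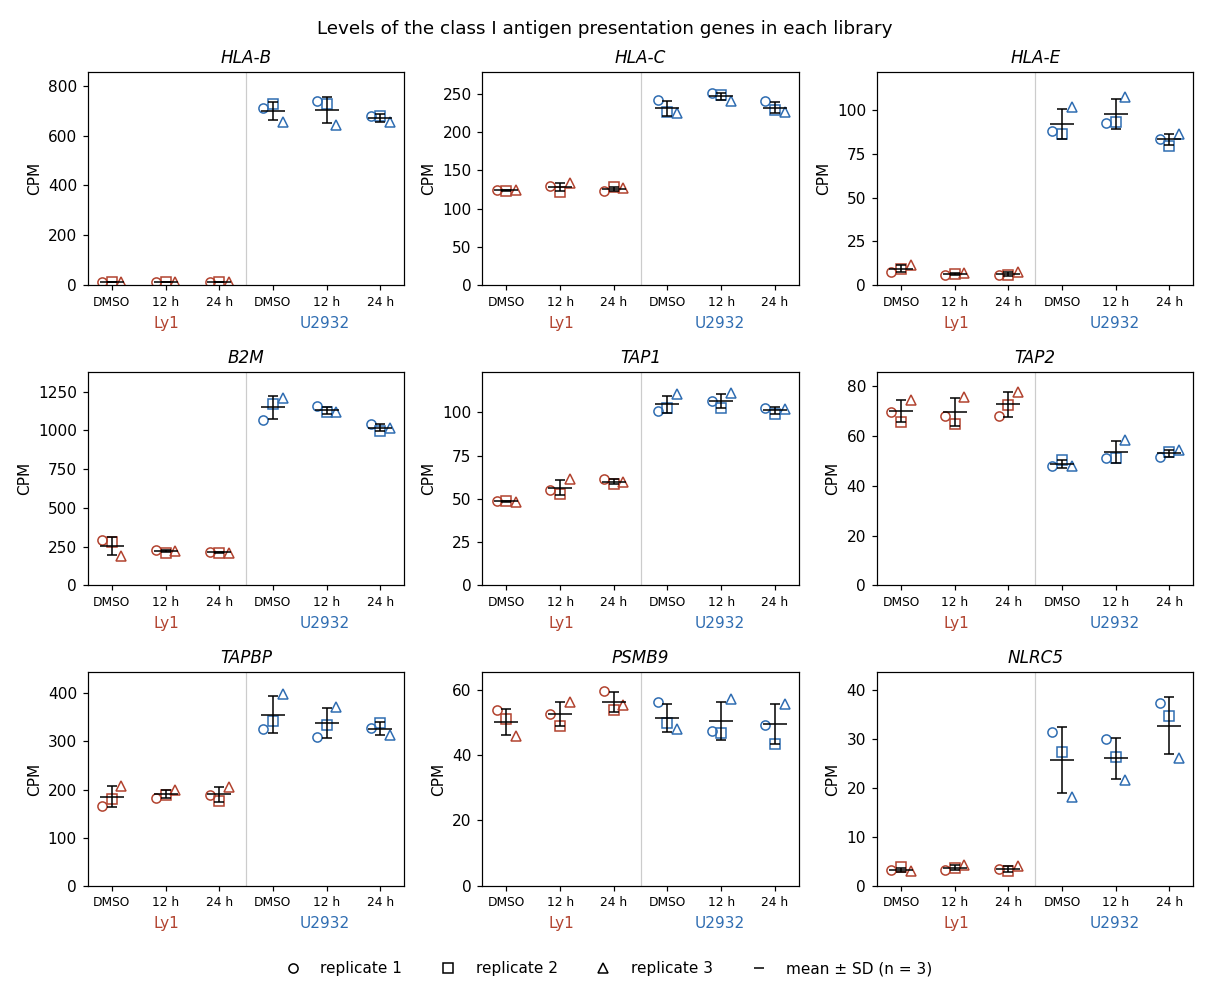
Level of each of the 9 genes in CPM (y axis, from 0) in each library of Ly1 (red) and U2932 (blue), by treatment (x axis). Circles, squares and triangles are replicates 1, 2 and 3, and bars give mean ± SD (n = 3); the lines are apart in every panel but PSMB9, and treated libraries lie near their DMSO libraries.

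Per kb of transcript, levels can be compared roughly between genes. The shared windows of TAP2 and the overlaps of PSMB9 with TAP1 and PSMB8, and of HLA-B with HLA-C, make their places less certain. In Ly1 DMSO the order was B2M (149 CPM per kb), TAPBP (98.0), HLA-C (80.8), PSMB9 (64.2), TAP2 (28.0), TAP1 (16.4), HLA-B (8.86), HLA-E (3.62) and NLRC5 (0.480), and no neighbours in that order overlapped. In U2932 DMSO it was B2M (674 CPM per kb), HLA-B (451), TAPBP (188), HLA-C (150), PSMB9 (65.7), HLA-E (35.4), TAP1 (35.3), TAP2 (19.5) and NLRC5 (3.76), where only HLA-E and TAP1 overlapped. HLA-B was thus at rank 7 in Ly1 and at rank 2 in U2932.

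The counted mix of HLA-B, HLA-C and HLA-E differed between the lines in all treatments. The split of reads between HLA-B and HLA-C is uncertain, because their intervals overlap. The effect on it of differences between the lines' alleles and the reference was not tested. Over the 9 libraries of a line, HLA-B per length was 0.101 to 0.115 of HLA-C in Ly1 and 2.65 to 3.18 of HLA-C in U2932. HLA-B was 8.92% to 10.1% of the summed length-scaled level of HLA-B, HLA-C and HLA-E in Ly1, where HLA-C was 85.6% to 88.7%, and 67.7% to 72.2% in U2932. The sum of these 3 chains was 90.6 to 97.9 CPM per kb in Ly1 and 602 to 676 CPM per kb in U2932. B2M per length was 1.17 to 1.88 of that sum in Ly1 and 0.945 to 1.17 of it in U2932. Other heavy chain genes are not in the sum.

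**Figure D2:**
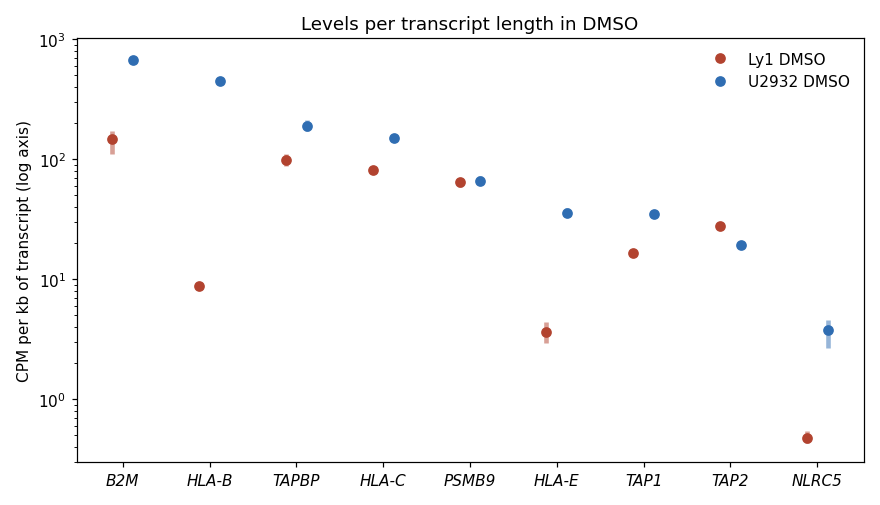
Level per kb of transcript in DMSO (log y axis) for the 9 genes, with points at the mean of 3 libraries and bars from the lowest to the highest library. HLA-B is at 8.86 in Ly1 and 451 in U2932, while PSMB9 is at 64.2 and 65.7.

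Around these genes, 35 others of the pathway were listed, and 34 of them were tested between the lines in DMSO. By edgeR 17 were higher in U2932, 8 were lower and 9 were not called, with a median log2 difference of 0.28. That is 25 of 34 called, beside 63% of all genes tested.

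Of the 4 other class I and class I-like chains listed, HLA-F, MR1 and HFE passed the filter on low counts only through U2932, so their direction, which counts among the 17, was fixed by the filter; they had 4 to 8 counts in all over the 3 Ly1 DMSO libraries. HLA-F, a less polymorphic chain, had 456 counts in the 3 U2932 DMSO libraries and 4 in those of Ly1, a ratio per library total of 114 (exact 95% interval 44.2 to 420). MR1, which presents vitamin B metabolites to MAIT cells, had 2491 against 4 counts, a ratio of 622 (243 to 2285). HFE, which binds the transferrin receptor and acts in iron balance, had 34 against 8 counts, a ratio of 4.25 (1.93 to 10.6). The intervals cover counting error only. With only the groups compared HFE did not pass the filter and was not tested. HLA-G did not pass the filter.

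The proteasome genes differed between the lines in both directions, by at most 0.62 in size among those called. Over all genes tested, 33.1% were called higher in U2932 and 29.9% lower. The immunoproteasome subunit PSMB8 was lower in U2932 by a log2 difference of -0.61 ± 0.14 (adjusted p = 0.000751), while PSMB10 was higher by 0.36 ± 0.15 (adjusted p = 0.0399), and so were the activator subunits PSME1 (0.47 ± 0.11) and PSME2 (0.52 ± 0.15). Of the constitutive catalytic subunits PSMB5 was higher (0.62 ± 0.10), and PSMB6 and PSMB7 were not called. Among the 6 genes of loading and trimming, the tapasin homologue TAPBPL (1.94 ± 0.15) and the aminopeptidase ERAP1 (0.77 ± 0.16) were higher in U2932. The chaperone CALR (-0.95 ± 0.14), the thiol oxidoreductase PDIA3 (-0.82 ± 0.12) and the aminopeptidase ERAP2 (-0.60 ± 0.25) were lower, and CANX was not called. The ERAP2 call was lost without replicate 3 of either DMSO group, without replicate 1 or 2 of U2932 DMSO, without the replicate 3 libraries, with limma voom and with only the groups compared. The PSMB10 call was lost without replicate 1 or 3 of Ly1 DMSO, without replicate 1 or 2 of U2932 DMSO and with only the groups compared.

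Of 13 listed transcriptional regulators, 8 were higher in U2932, 1 was lower and 4 were not called. Over all genes tested between the lines, 33.1% were called higher in U2932 and 29.9% lower. The list was not split by whether a regulator raises or lowers class I. IRF1, an interferon-induced activator of class I genes, was at 7.33 ± 1.52 CPM in Ly1 and 43.6 ± 11.4 CPM in U2932 (SD, n = 3), a log2 difference of 2.57 ± 0.17 (adjusted p = 2.47e-10). RFXAP, a subunit of the RFX complex, was higher by 1.46 ± 0.16, the class II transactivator CIITA by 0.82 ± 0.15 and STAT2 by 0.70 ± 0.19, and IRF2, NFYC, EZH2 and EED by 0.45 to 0.58. NFYA, the NF-Y subunit that contacts the CCAAT box, was lower in U2932, at 40.1 ± 1.33 against 113 ± 2.76 CPM in Ly1 (log2 difference -1.50 ± 0.10, adjusted p = 3.19e-10). RFX5, another RFX subunit, was not called (0.02 ± 0.09, adjusted p = 0.868). Of 5 genes listed for surface turnover of class I, SUSD6 (-0.84 ± 0.13), SPPL3 (-0.84 ± 0.09) and WWP2 (-0.36 ± 0.11) were lower in U2932, none was higher, and TMEM127 and MARCHF9 were not called. Without the replicate 3 libraries 27 of the 34 were called, 19 as higher and 8 as lower, beside 73.4% of all genes: PSMB7, TMEM127 and MARCHF9 were then called and ERAP2 was not.

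**Figure D3:**
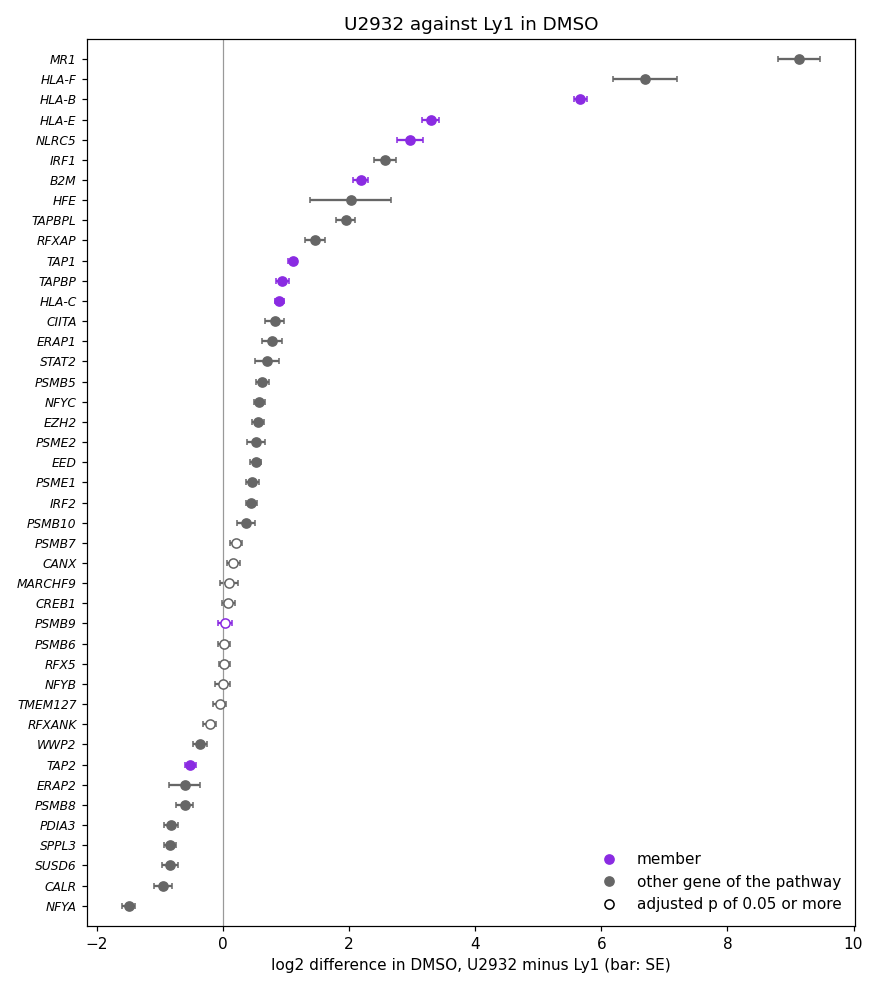
Log2 difference in DMSO, U2932 minus Ly1, with SE bars, for the 9 genes (purple) and 34 others of the pathway (grey); open points have an adjusted p of 0.05 or more. HLA-B at 5.67, HLA-E at 3.29 and NLRC5 at 2.97 lead the 9 genes, and TAP2 at -0.52 is the lowest of them; MR1 and HLA-F rest on 4 counts each in Ly1.

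In Ly1, edgeR on all 9 libraries, with no block for replicate number, called none of the 9 genes after SGC-GAK-1 at either time. The largest differences were in HLA-E, lower in the treated libraries by about the same amount at both times, and in TAP1, slightly higher. By edgeR 0 of 9 were called at 12 h, when 0% of the 14005 genes tested were, and 0 of 9 at 24 h, when 0.55% were. At an unadjusted p under 0.05 there were 2 of 9 at each time, beside 6.13% of all genes at 12 h and 16.5% at 24 h. DESeq2 called 0 of 9 at 12 h and 1 of 9 at 24 h, and limma voom called 0 at both. The median log2 fold change over the 9 was 0.04 at each time, and over all genes it was -0.01.

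HLA-E in Ly1 went from 7.70, 8.96 and 11.6 CPM in DMSO to 5.91, 6.28 and 6.78 CPM at 12 h and 5.74, 5.86 and 7.46 CPM at 24 h. Every treated library was below every DMSO library, as were 7.03% of all genes at 12 h and 7.8% at 24 h. The log2 fold change was -0.57 ± 0.18 at 12 h (adjusted p = 0.536) and -0.56 ± 0.18 at 24 h (adjusted p = 0.178). HLA-E was lower in 3 of 3 replicate numbers at both times, by -0.38, -0.51 and -0.76 at 12 h and -0.42, -0.61 and -0.63 at 24 h. Without the replicate 3 libraries HLA-E was called at both times, at -0.44 ± 0.14 (adjusted p = 0.0387) and -0.51 ± 0.14 (adjusted p = 0.00337), and 9% and 46.2% of all genes were then called. Without replicate 3 of the 24 h group alone, the 24 h value was -0.70 ± 0.19 (adjusted p = 0.0257), with 21.2% of all genes called. The 3 DMSO libraries are the same in both comparisons.

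TAP1 in Ly1 went from 48.9, 48.6 and 48.3 CPM in DMSO to 55.3, 52.8 and 61.3 CPM at 12 h and 61.2, 58.3 and 60.0 CPM at 24 h. Every treated library was above every DMSO library, as was so for 8.15% of all genes at 12 h and 8.13% at 24 h. The log2 fold change of TAP1 was 0.21 ± 0.09 at 12 h (adjusted p = 0.749) and 0.30 ± 0.09 at 24 h (adjusted p = 0.140). DESeq2 called TAP1 at 24 h (0.30 ± 0.09, adjusted p = 0.0341), when it called 4.06% of all genes. edgeR called it at 24 h without the replicate 3 libraries (0.30 ± 0.07, adjusted p = 0.000538) or without replicate 3 of the 24 h group alone (0.30 ± 0.08, adjusted p = 0.0272).

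B2M in Ly1 turned on 1 library. From 294, 277 and 188 CPM in DMSO it went to 229, 212 and 225 CPM at 12 h and 219, 211 and 210 CPM at 24 h, inside the DMSO range. The log2 fold change was -0.19 ± 0.14 at 12 h (adjusted p = 0.996) and -0.25 ± 0.14 at 24 h (adjusted p = 0.408). By replicate number B2M differed by -0.36, -0.39 and 0.26 at 12 h and by -0.43, -0.39 and 0.16 at 24 h, with replicate 3 alone above its DMSO library. Without replicate 3 of Ly1 DMSO, B2M was called at 24 h (-0.41 ± 0.08, adjusted p = 0.0178), when 5.67% of all genes were. Without the replicate 3 libraries it was called at both times, at -0.37 ± 0.06 (adjusted p = 2.83e-05) and -0.41 ± 0.06 (adjusted p = 1.29e-06).

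The other 6 genes stayed within 0.17 of DMSO on the log2 scale in Ly1. HLA-B was at 13.2, 13.7 and 13.6 CPM at 12 h and 14.3, 13.8 and 14.0 CPM at 24 h, with log2 fold changes of -0.02 ± 0.10 and 0.04 ± 0.10. HLA-C, TAP2 and TAPBP had log2 fold changes of -0.01 to 0.06 over both times. PSMB9 differed by 0.07 ± 0.09 and 0.17 ± 0.09 and NLRC5 by 0.17 ± 0.19 and 0.07 ± 0.19. The 24 h libraries of PSMB9 were above all DMSO libraries, as for 8.13% of all genes (adjusted p = 0.408 by edgeR). Between 24 h and 12 h edgeR called 0 of 9 in Ly1 (0% of all genes), 0 had an unadjusted p under 0.05 (10.3% of all genes did), and DESeq2 and limma voom also called 0. Those log2 differences ran from -0.10 for NLRC5 to 0.10 for PSMB9.

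In U2932 too, edgeR on all 9 libraries, with no block for replicate number, called none of the 9 genes after SGC-GAK-1. NLRC5 was the gene with the largest difference, higher at 24 h, and B2M and HLA-E were slightly lower at 24 h. By edgeR 0 of 9 were called at each time, as were 0% of 15138 genes, and no gene of the 9 had an unadjusted p under 0.05 (3.42% of all genes did at 12 h and 11.3% at 24 h). DESeq2 and limma voom called 0 of 9 at both times. The median log2 fold change over the 9 was 0.02 at 12 h and -0.03 at 24 h, beside medians of -0.00 and 0.00 over all genes.

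NLRC5 in U2932 was at 31.4, 27.4 and 18.1 CPM in DMSO, 30.0, 26.3 and 21.6 CPM at 12 h and 37.3, 34.6 and 26.1 CPM at 24 h. The groups overlapped, and replicate 3 was the lowest in each. Within replicate numbers NLRC5 was higher at 24 h than in DMSO in 3 of 3, by 0.25, 0.34 and 0.52 on the log2 scale. The log2 fold change at 24 h was 0.37 ± 0.22 (adjusted p = 0.558). In these groups libraries of the same number deviated together, and with the replicate block the value was 0.39 ± 0.08 (adjusted p = 0.0272), when 4.41% of all genes were called. Without the replicate 3 libraries NLRC5 was called at 24 h against DMSO (0.31 ± 0.08, adjusted p = 0.0123), beside 9.01% of all genes. It was then also called at 24 h against 12 h (0.37 ± 0.08, adjusted p = 0.00561), beside 6.19% of all genes.

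B2M in U2932 was at 1155, 1119 and 1117 CPM at 12 h and 1044, 997 and 1013 CPM at 24 h, against 1069, 1168 and 1211 CPM in DMSO. All 24 h libraries were below all DMSO libraries, as was the case for 10.8% of all genes, and the log2 fold change at 24 h was -0.15 ± 0.07 (adjusted p = 0.448). HLA-E was at 92.8, 93.3 and 108 CPM at 12 h and 83.8, 79.6 and 86.3 CPM at 24 h, against 87.8, 86.4 and 102 CPM in DMSO. Its log2 fold changes were 0.09 ± 0.08 and -0.12 ± 0.08. HLA-B, at 737, 728 and 642 CPM at 12 h and 680, 679 and 652 CPM at 24 h, differed from DMSO by 0.01 ± 0.08 and -0.03 ± 0.08. The other 5 genes had log2 fold changes of -0.10 to 0.14 over both times, and TAP2 was at 0.14 ± 0.07 at each, with its treated libraries above all DMSO libraries (as for 3.77% of all genes at 12 h and 7.95% at 24 h). Between 24 h and 12 h edgeR called 0 of 9 in U2932 (0% of all genes), and 1 of 9, HLA-E, had an unadjusted p under 0.05 (-0.21 ± 0.08, adjusted p = 0.547), beside 8.42% of all genes. DESeq2 and limma voom called 0 of 9 there.

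**Figure D4:**
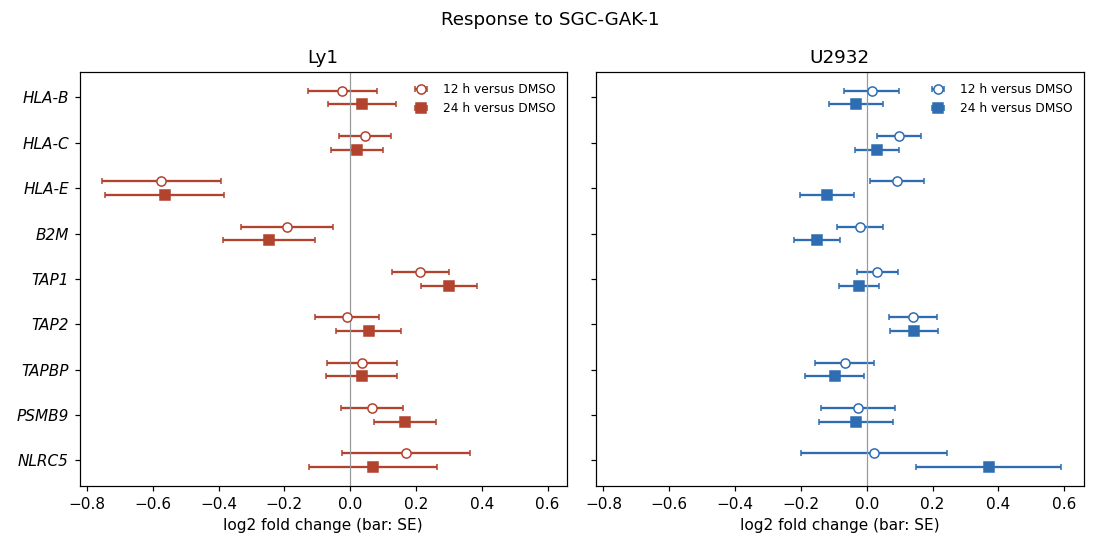
Log2 fold change after SGC-GAK-1 at 12 h (open circles) and 24 h (filled squares) against DMSO, with SE bars, for the 9 genes in Ly1 (left) and U2932 (right). HLA-E at -0.57 and -0.56 in Ly1 and NLRC5 at 0.37 in U2932 at 24 h lie furthest from 0. None was called in these edgeR fits, which had no block for replicate number.

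The response of each gene was also compared between the lines, as the U2932 change minus the Ly1 change. By edgeR 0 of 9 differed at 12 h and 0 of 9 at 24 h, as did 0% of 16191 genes at both times. At an unadjusted p under 0.05 there was 1 of 9 at 12 h (2.5% of all genes) and 2 of 9 at 24 h (8.33%), and DESeq2 and limma voom called 0. HLA-E had a difference of 0.66 ± 0.19 at 12 h (adjusted p = 1.00) and 0.41 ± 0.19 at 24 h (adjusted p = 0.567), and TAP1 one of -0.35 ± 0.11 at 24 h (adjusted p = 0.398).

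Without the replicate 3 libraries, more of these differences between lines passed the test. HLA-E was then called at 12 h (0.57 ± 0.13, adjusted p = 0.00412) and 24 h (0.47 ± 0.13, adjusted p = 0.00515), and B2M at 12 h (0.43 ± 0.08, adjusted p = 0.000189) and 24 h (0.33 ± 0.08, adjusted p = 0.001). TAP1 was called at 24 h (-0.26 ± 0.08, adjusted p = 0.0194). Of all genes, 4.5% and 26.6% were called in those fits. What sets the replicate 3 libraries apart was not tested.

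**Figure D5:**
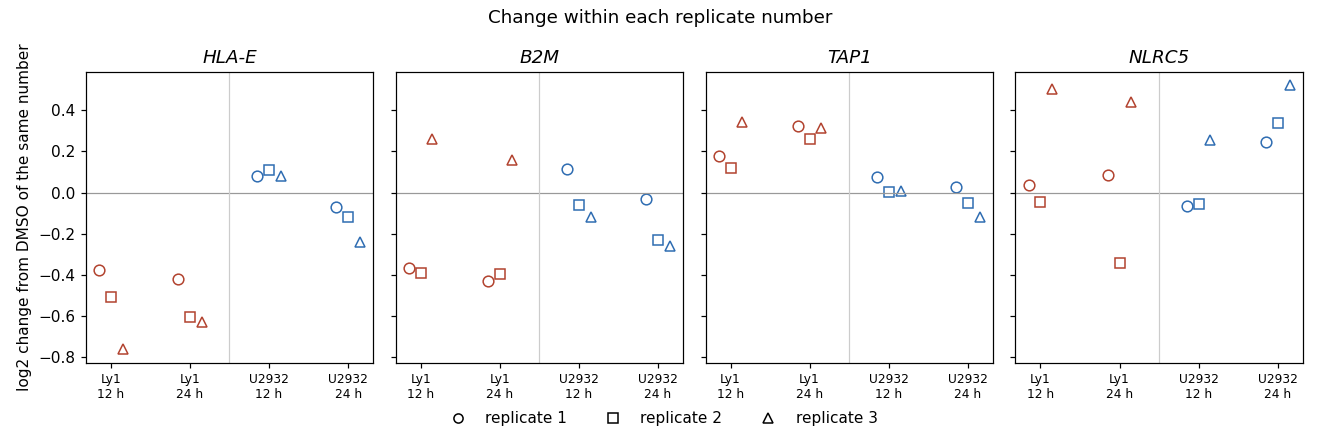
Log2 change from the DMSO library of the same replicate number (y axis) for HLA-E, B2M, TAP1 and NLRC5 in each line and time (x axis); symbols mark replicates 1, 2 and 3. HLA-E is below 0 for all 3 numbers in Ly1, whereas B2M in Ly1 is above 0 only for replicate 3 (0.26 and 0.16).

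Among the other genes of the pathway, 0 of 31 tested in Ly1 and 0 of 34 in U2932 were called by edgeR at either time. Their median log2 fold change was 0.06 and 0.09 at 12 h and 24 h in Ly1 and 0.03 and -0.02 in U2932. DESeq2 called 2 of them in Ly1 at 24 h, RFX5 and CIITA, beside 4.06% of all genes, and 1 in U2932 at 24 h, HLA-F, beside 1.04% of all genes. In edgeR, CIITA differed by -0.37 ± 0.10 (adjusted p = 0.130) and RFX5 by 0.28 ± 0.08 (adjusted p = 0.126) in Ly1 at 24 h, and both were called without replicate 3 of the 24 h group. HLA-F in U2932 was at 6.51, 6.11 and 5.11 CPM in DMSO and 8.58, 8.25 and 8.85 CPM at 24 h. HLA-F was then above DMSO without overlap, as were 7.95% of all genes. Its log2 fold change was 0.56 ± 0.13 (adjusted p = 0.254), and with the replicate block or without the replicate 3 libraries it was called. Without the replicate 3 libraries 21 of the 31 in Ly1 at 24 h were called, 14 of them higher, beside 46.2% of all genes. Without replicate 3 of the 24 h group alone 13 of them were called, beside 21.2% of all genes, and without replicate 3 of Ly1 DMSO alone CIITA was. At 12 h, leaving out the replicate 3 libraries gave 5 calls of 31 in Ly1 (IRF2, STAT2, RFXAP, EZH2 and EED; 9% of all genes) and 2 of 34 in U2932 (PSMB5 and STAT2; 2.86% of all genes). At 24 h in U2932 it gave 2 of 34 (HLA-F and IRF2; 9.01% of all genes).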

How the data were processed

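Per the labels' protocols, libraries came from a NuGEN Universal Plus kit (14 PCR cycles), and reads of 2 NovaSeq runs were merged. The tools named in the submitters' processing notes are cutadapt, STAR and Picard, with hg38 as the build. Not given in the sources used here: versions, counter, strand use, annotation release and handling of duplicates. The authors deposited whole-number read counts per gene, not normalized.

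Counts were tested with edgeR 4.0.16 (TMM scaling, filterByExpr, robust quasi-likelihood F test, Benjamini-Hochberg adjustment over all genes tested, threshold 0.05). Each line was fitted on its own 9 libraries for responses, and all 18 libraries for line differences. CPM use TMM-scaled totals. Fits were tested on simulated data. Other software was biopython 1.88, matplotlib 3.10.9, scipy 1.17.1, DESeq2 1.42.0 and limma 3.58.1, under Python 3.11.15 and R 4.3.3. Transcript lengths are those of the GENCODE principal transcripts, which may not be the release the authors counted with. All 9 genes passed the filter in every fit.

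The genes and lists were chosen with earlier results of these data known. Genes named are the 9, the pathway genes called in a comparison, and the 5 genes most like the mean of the 9, beside cell type markers. Uncalled pathway genes that are named, such as RFX5, were picked after their values were seen. A few further genes are not reported here.

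Alternatives were DESeq2, limma voom, library size only, no filter, only the groups compared, each replicate left out, no replicate 3 libraries, and replicate number as a block. The labels give replicate numbers without their meaning. The main fits had no replicate block, also where numbers paired groups, so their p-values leave the pairing out. Numbers were judged to pair groups where deviations from group means correlated above 0.1 over genes for all 3 numbers. That held for Ly1 12 h with DMSO (0.351 to 0.577), Ly1 24 h with DMSO (0.119 to 0.297), and all U2932 pairs (0.449 to 0.765). It did not hold for Ly1 24 h with 12 h (lowest 0.0912) or between the lines (-0.201 to -0.0196).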

Additional observations from a re-analysis of the deposited data

How the results depend on the processing

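Of 1161 values of single genes among the 9 members under alternatives, 1144 kept their side of the threshold, 17 newly passed it, and 0 lost a call or reversed one. The line difference in DMSO kept 7 members higher and 1 lower in every alternative. For the responses, edgeR called 0 of 9 members in the main fits. Leaving out the replicate 3 libraries gave 2 calls in Ly1 at 12 h (9% of all genes) and 3 at 24 h (46.2%). In U2932 it gave 1 call at 24 h (9.01% of all genes) and 1 between 24 h and 12 h (6.19%). For the difference between lines it gave 2 calls at 12 h (4.5%) and 3 at 24 h (26.6%). DESeq2 gave 1 call in Ly1 at 24 h (4.06% of all genes). The replicate block gave 1 call in U2932 at 24 h (NLRC5; 4.41% of all genes) and changed no other member call. Leaving out 1 library at a time gave 0 to 2 calls in Ly1 at 24 h and no change elsewhere. The genes called in Ly1 at 24 h over the whole table were 77 with edgeR, 568 with DESeq2, 794 without the filter, 1 with library size only, 0 with only the groups compared, 275 with the replicate block, 807 without replicate 3 of DMSO, 3030 without replicate 3 of the 24 h group and 6483 without the replicate 3 libraries. The cause of these changes was not tested. Among genes not called, 81 values had the other sign under an alternative. With 3 libraries per group and DMSO shared by both times, depth limits NLRC5 most in Ly1, with 68 to 108 counts per library.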

Other observations

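The mean of the 9 members, on the log2 CPM scale centred within each line, ran from -0.06 to 0.08 over the 18 libraries; it averages genes that go both ways, and is near 0 by construction. By the root mean square difference from this mean profile, the 5 most like genes among 8927 candidates were CAP1 (0.0446), AP2M1 (0.0471), NONO (0.0488), MBD1 (0.0540) and RIC8A (0.0543), beside a median of 0.162 over the candidates. CAP1 binds actin, AP2M1 is the mu subunit of the AP-2 clathrin adaptor, NONO is a nuclear RNA-binding protein, MBD1 binds methylated DNA and RIC8A is a chaperone of G protein alpha subunits. Genes that vary little lie near such a profile, and the likeness is a description with no test.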
